A study of Mus musculus with 12 samples.

Results

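The genes that copy DNA in S phase were followed in RNA-seq libraries of mouse heart cardiomyocytes. A list of 51 gene symbols, set by what the genes do, was looked up among the 25239 symbols of each deposited count table, and all 51 were found in both. This list and those beside it were set with earlier results of these data known. Their contrasts with all genes below are therefore descriptions and not independent tests. The libraries were labelled Chaf1a cko, Ctrl, Chaf1a cko 3M and Ctrl 3M, with 3 in each group. The first 2 groups shared 1 table, called the first set here, and the 3M groups shared the other. The study's title concerns loss of Chaf1a around birth and polyploid cardiomyocytes with a single nucleus. Per the series' design text, cko mice carried Myh6-Cre, a recombinase driven by a cardiomyocyte promoter, with Chaf1a f/f alleles, and control mice carried the f/f alleles alone. Cre and loss of Chaf1a thus go together, and cells that do not use the Myh6 promoter keep the gene. The genotype label of the Ctrl libraries reads WT. The RNA came from cultured cardiomyocytes of the heart, and all libraries are labelled as the same batch. No age is given for the first set, and 3M is not spelled out. The labels do not state whether replicates stem from different animals or different cultures, and each p-value therefore reflects only the spread among these libraries, which may be technical.

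DNA replication starts at origins, where the origin recognition complex, Cdc6 and Cdt1 load the MCM helicase in G1, and geminin blocks a repeat of that loading. The Cdc7 kinase with its activator Dbf4 switches the helicase on together with Cdc45 and the GINS complex. Polymerases, the PCNA clamp and its loader, single-strand binding proteins, flap nuclease and ligase then build the new strands from nucleotides supplied by ribonucleotide reductase, thymidylate synthase and thymidine kinase. Many of these genes are transcribed under E2F factors in late G1. Cardiomyocytes are known to leave the cell cycle soon after birth, some of them with extra copies of the genome. Chaf1a makes the large subunit of CAF-1, the chromatin assembly factor that binds PCNA and places new histones behind the fork.

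Promoter sequence was available for 42 of the 51 genes as windows of 300 bases, from 250 before to 50 after the annotated start, taken from RefSeq on GRCm38.p6. No window was held for Gmnn, Mcm4, Gins1, Gins2, Gins4, Prim2, Pole, Rfc2 and Ccne2. Each window was searched on both strands for 4 E2F words, TTTCCCGC, TTTCGCGC, TTTGCCGC and TTTGGCGC. At least 1 word was present for 16 of the 42 genes (38.1%), for 18 of 65 other genes of the pathway (27.7%) and for 704 of all 27025 genes with a window (2.6%). Among genes tested in the first set it was 593 of 17869 (3.32%). The windows of the 42 genes were also richer in G and C, with a median of 62.3%. It was 52.7% over all windows and 56.7% over those of genes tested in the first set. The part of base composition in the difference was not tested. The MCM helicase genes held the words in 5 of 7 genes, the replicated chromatin genes in 3 of 4, and the nucleotide supply genes in 0 of 6. The CHR word TTTGAA, an element known from genes of late cell cycle phases, was in the windows of 9 of the 42 genes (21.4%). Of all genes 20.2% held it, and of those tested in the first set 17.5%. A CCAAT box was in the windows of 25 of the 42 genes (59.5%), against 41.1% of all genes and 41.9% of those tested in the first set. A match is a description of the letters, and no binding was measured. The windows of Dnmt1, Uhrf1, Pcna and Rrm2 are printed because at least 1 tool called these genes in the first set, as DESeq2 did Mcm4, for which no window was held. They are given 5′ to 3′ on the gene's strand with the E2F words in capitals, and those of Pcna and Rrm2 held none. They lie at chr9:20952574-20952873 (minus strand, Dnmt1), chr17:56304063-56304362 (plus, Uhrf1), chr2:132253131-132253430 (minus, Pcna) and chr12:24708004-24708303 (plus, Rrm2). Dnmt1 and Uhrf1 have further annotated starts, whose windows held none of the words and are not printed.
Dnmt1: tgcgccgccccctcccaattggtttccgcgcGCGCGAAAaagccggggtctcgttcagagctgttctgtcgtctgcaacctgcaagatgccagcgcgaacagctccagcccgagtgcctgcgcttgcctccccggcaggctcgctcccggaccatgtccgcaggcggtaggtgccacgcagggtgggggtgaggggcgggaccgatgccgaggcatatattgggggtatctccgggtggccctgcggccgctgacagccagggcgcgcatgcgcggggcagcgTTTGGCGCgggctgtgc
Uhrf1: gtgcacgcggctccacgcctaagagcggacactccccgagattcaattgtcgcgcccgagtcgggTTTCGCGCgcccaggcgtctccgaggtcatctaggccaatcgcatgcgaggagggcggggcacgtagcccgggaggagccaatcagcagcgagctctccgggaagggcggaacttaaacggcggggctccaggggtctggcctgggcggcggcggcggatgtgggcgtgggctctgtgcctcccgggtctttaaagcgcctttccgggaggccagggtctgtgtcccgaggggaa
Pcna: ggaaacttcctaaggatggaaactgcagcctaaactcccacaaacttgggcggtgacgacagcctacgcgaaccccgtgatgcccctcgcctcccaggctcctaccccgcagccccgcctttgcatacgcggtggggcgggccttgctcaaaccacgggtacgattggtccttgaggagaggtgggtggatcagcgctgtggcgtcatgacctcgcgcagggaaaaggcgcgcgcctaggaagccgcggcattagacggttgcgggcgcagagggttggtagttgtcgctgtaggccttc
Rrm2: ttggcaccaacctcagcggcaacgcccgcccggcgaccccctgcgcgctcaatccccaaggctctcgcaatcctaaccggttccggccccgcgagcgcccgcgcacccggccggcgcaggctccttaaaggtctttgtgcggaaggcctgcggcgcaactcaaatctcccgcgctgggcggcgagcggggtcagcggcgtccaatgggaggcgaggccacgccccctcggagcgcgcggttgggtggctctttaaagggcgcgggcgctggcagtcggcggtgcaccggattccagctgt

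Library totals ran from 16529103 to 20879414 counts in libraries labelled Chaf1a cko and from 15068468 to 20896673 in those labelled Ctrl, and from 10569325 to 15600479 in Chaf1a cko 3M and 11262660 to 16445963 in Ctrl 3M. Levels are given as CPM, counts scaled to library size after TMM normalization. Libraries labelled Chaf1a cko did not have less Chaf1a RNA, with 29.0, 24.5 and 22.0 CPM against 22.7, 32.3 and 18.8 CPM in Ctrl. The 3M values were 8.34, 5.58 and 5.54 CPM in Chaf1a cko 3M against 1.88, 4.74 and 9.75 CPM in Ctrl 3M. Which exons are floxed is not given in the sources used, and reads from the rest of the gene would still be counted. Every direction below is therefore that of libraries labelled Chaf1a cko relative to libraries labelled Ctrl. In the first set 4 genes of the Y chromosome (Uty, Kdm5d, Eif2s3y and Ddx3y) rose, with log2 fold changes from 1.12 to 1.30, so an unequal mixture of sexes and the label cannot be told apart in that set. Xist differed there by -0.79 (adjusted p 0.574 in edgeR). In the 3M set 4 of these 5 sex-linked genes were tested, from -1.08 to 0.13, with 0 called. Of them 1 was lower without overlap, against 6.89% of all genes. Pola1 is the only X-linked gene of the replication list, and none is Y-linked. The 12 cardiomyocyte markers summed to 112945 to 113596 CPM in Chaf1a cko and 114948 to 119480 CPM in Ctrl, with 3 called higher, 4 called lower and 0 at 0. Fibroblast markers summed lower, at 2983 to 3007 CPM against 3580 to 3687 CPM, with 5 of 10 called lower and 0 of 10 at 0. Erythroid markers summed to 2360 to 2390 CPM against 1727 to 2286 CPM, with 0 of 10 called and 0 at 0. The part of either cell type in the results below was not tested. In bulk RNA, fewer cells of a type and less RNA per cell cannot be told apart. Chemoreceptor genes, taken as mostly silent in the heart, had counts for 94.8% to 97.5% of 1527 genes in each first-set library and for 1.18% to 1.64% in each 3M library. The 95th percentile of their levels was 5.32 CPM (first set) and 0 (3M set).

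In the first set the replication genes lay mostly above their Ctrl levels by small amounts, and 1 of the 51 passed the test. Dnmt1, which copies DNA methylation onto new strands, rose. Of the 51 genes 1 was called higher and 0 lower at an adjusted p under 0.05 in edgeR's quasi-likelihood test, where 0.74% of the 22965 genes tested were called higher and 0.435% lower. At an unadjusted p under 0.05, 15 of the 51 were higher, against 5.63% of all genes, and 0 were lower, against 4.5%. The 3 libraries of each group did not overlap for 17 genes, all higher in Chaf1a cko, against 8.33% of all genes, and for 0 genes lower, against 7.85%. A log2 fold change above 0 was found for 40 of the 51 genes and for 49.1% of all genes, with a median of 0.23 over the list and -0.01 over all genes tested. The list ran from -0.46 for Gins1 to 0.93 for Rfc4. DESeq2's Wald test called 5 of the 51 higher (Dnmt1, Uhrf1, Pcna, Rrm2 and Mcm4), and 0 lower, and edgeR without robust estimation called 0. DESeq2 gave no adjusted p to some of the 51, among them Rfc4, Orc1, Cdc6 and Cdc7, and so could not call them. The 40 genes above 0 numbered 40 also with DESeq2's size factors and with library size alone.

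**Figure D1:**
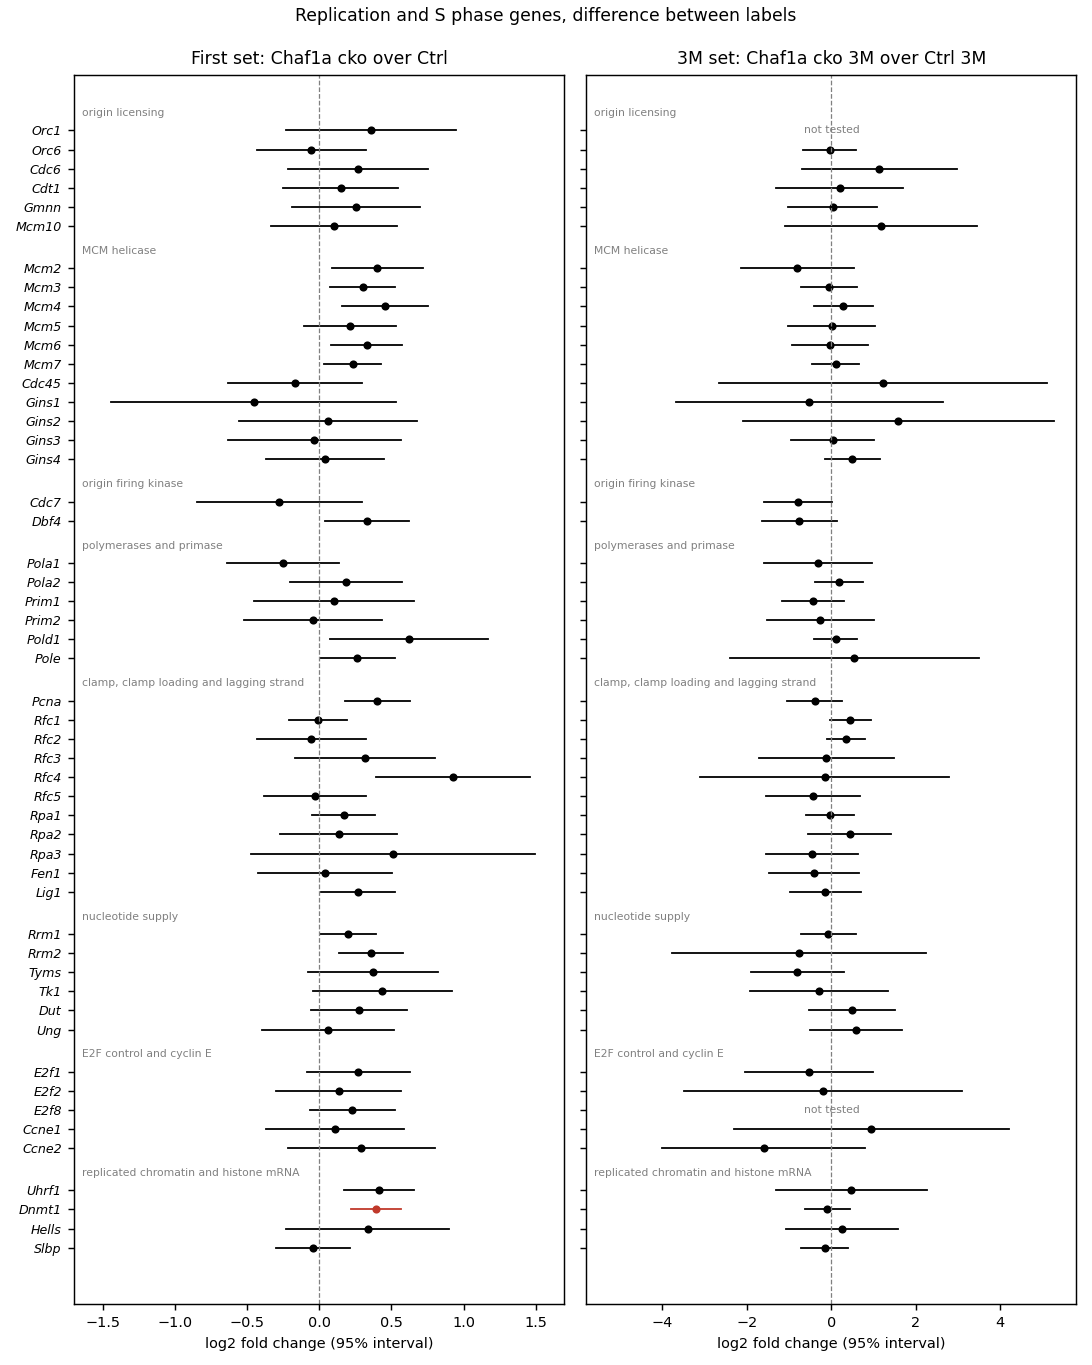
Log2 fold change of each gene with its 95% interval, in libraries labelled Chaf1a cko over those labelled Ctrl (left) and Chaf1a cko 3M over Ctrl 3M (right), grouped by step. Dnmt1, drawn in red, is the gene called, the first-set values run from -0.46 to 0.93, and the 3M intervals are wider, on a different horizontal scale.

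Origin licensing showed no call among its 6 genes. Of these, 5 had log2 fold changes above 0, all 6 had overlapping groups, and the values ran from -0.06 to 0.36. Orc1, an ATP-binding subunit of the origin recognition complex, was at 8.30, 5.63 and 8.24 CPM in Chaf1a cko and 6.49, 6.78 and 4.06 CPM in Ctrl. Cdc6, which loads the helicase with the origin recognition complex, was at 11.7, 11.3 and 14.7 CPM against 7.56, 13.5 and 10.2 CPM. In both genes a Ctrl library stood within the Chaf1a cko range. The partner of Cdc6 in loading, Cdt1, was at 20.9, 19.8 and 16.1 CPM against 21.6, 14.7 and 15.1 CPM. Gmnn (geminin), which binds and inhibits Cdt1, was at 14.3, 12.3 and 20.9 CPM against 12.8, 14.9 and 12.1 CPM, with a single Chaf1a cko library above the Ctrl range. For these genes the highest Ctrl library lay within or above the Chaf1a cko range. Log2 fold changes came to 0.36 for Orc1 (SE 0.28), 0.27 for Cdc6 (SE 0.23), 0.15 for Cdt1 (SE 0.19) and 0.26 for Gmnn (SE 0.21), with adjusted p from 0.758 upwards in edgeR. With 1 library left out the values ran from 0.15 to 0.52 for Orc1 (lowest without Ctrl replicate 3), 0.087 to 0.49 for Cdc6 (without Ctrl replicate 1 and Ctrl replicate 2), 0.046 to 0.35 for Cdt1 (without Ctrl replicate 2 and Ctrl replicate 1) and 0.0010 to 0.41 for Gmnn (lowest when Chaf1a cko replicate 3 was omitted). Orc6 differed by -0.06. Mcm10 was grouped with this step, though it links the helicase to polymerase alpha and acts after loading, and it differed by 0.10.

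In the helicase step, all 6 genes of the MCM2 to MCM7 ring had higher mean levels in Chaf1a cko than in Ctrl. For 5 of them the libraries did not overlap, against 8.33% of all genes, and none passed the test. Mcm4 was at 29.7, 33.7 and 27.0 CPM in Chaf1a cko and at 23.0, 20.5 and 22.5 CPM in Ctrl. Mcm3 was at 59.2, 53.1 and 55.6 CPM against 49.0, 47.6 and 39.8 CPM. Mcm6 was at 56.4, 43.8 and 45.4 CPM against 37.7, 39.1 and 39.0 CPM. In each of these genes the lowest Chaf1a cko library stood above the highest Ctrl library. Mcm7 was at 56.9, 62.1 and 63.2 CPM against 49.98, 52.6 and 52.8 CPM. Mcm2 was at 36.0, 30.8 and 36.0 CPM against 28.0, 20.5 and 29.4 CPM. Mcm5 was the exception, at 24.4, 26.9 and 26.3 CPM against 20.7, 26.3 and 19.99 CPM, with a Ctrl library inside the Chaf1a cko range. The log2 fold changes were 0.46 (SE 0.14) for Mcm4, 0.40 (SE 0.15) for Mcm2, 0.33 (SE 0.12) for Mcm6, 0.30 (SE 0.11) for Mcm3, 0.23 (SE 0.09) for Mcm7 and 0.21 (SE 0.15) for Mcm5, and the smallest adjusted p was 0.194 in edgeR, for Mcm4. DESeq2's Wald test put Mcm4 past the threshold, with an adjusted p of 0.0470. Summed over the ring, the level was 263, 250 and 254 CPM in Chaf1a cko and 208, 207 and 204 CPM in Ctrl, a ratio of 1.24. The genes that complete the active helicase lay on both sides of 0. Cdc45 differed by -0.17, and the 4 GINS genes ran from -0.46 to 0.06 with overlapping groups. Of the GINS genes 3 lay at or below the chemoreceptor level per length, and the MCM genes stood above it.

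**Figure D2:**
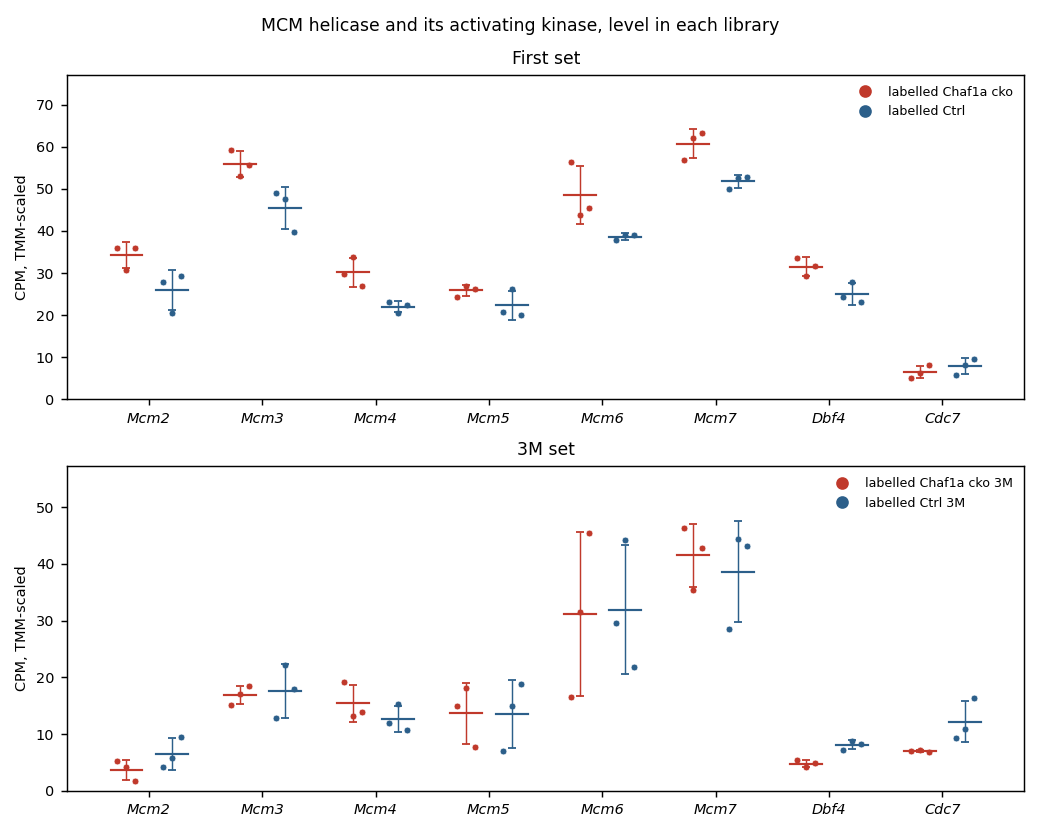
CPM of the MCM2 to MCM7 genes, Dbf4 and Cdc7 in each library, with the mean (long bar) and SD (n = 3 per group), Chaf1a cko in red on the left of each pair and Ctrl in blue on the right. In the first set (top) the points of Mcm2, Mcm3, Mcm4, Mcm6, Mcm7 and Dbf4 do not overlap between groups, and in the 3M set (bottom) Dbf4 and Cdc7 do not overlap, with Chaf1a cko 3M lower.

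The kinase that fires origins had 1 subunit on each side. Dbf4, the regulatory subunit, was at 33.7, 29.3 and 31.6 CPM in Chaf1a cko and 24.2, 28.0 and 23.0 CPM in Ctrl. Its catalytic partner Cdc7 was at 5.11, 6.27 and 8.14 CPM against 5.75, 8.28 and 9.59 CPM. The groups did not overlap for Dbf4 and did for Cdc7. Dbf4 had a log2 fold change of 0.33 (SE 0.14, adjusted p 0.415 in edgeR) and Cdc7 one of -0.28 (SE 0.27, adjusted p 0.831), which was -0.11 without Ctrl replicate 3 and -0.47 without Chaf1a cko replicate 3.

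Among the polymerases and primase 0 of 6 genes passed and 4 had log2 fold changes above 0. Groups did not overlap for 1 gene, against 8.33% of all genes higher without overlap. Pold1, the catalytic subunit of polymerase delta, was at 23.5, 14.3 and 16.0 CPM in Chaf1a cko and 7.36, 11.5 and 15.8 CPM in Ctrl. Pole, the catalytic subunit of the leading-strand polymerase epsilon, was at 37.9, 41.4 and 37.0 CPM against 33.3, 34.9 and 28.8 CPM. Pola1, the catalytic subunit of polymerase alpha, was at 13.7, 11.5 and 16.2 CPM against 16.1, 17.3 and 16.0 CPM. Pole was the gene without overlap, while Pold1 and Pola1 overlapped. In log2 fold change these were 0.62 for Pold1 (SE 0.26, adjusted p 0.427 in edgeR), 0.26 for Pole (SE 0.12, adjusted p 0.489) and -0.25 for Pola1 (SE 0.19, adjusted p 0.733). The value of Pold1 was 0.38 without Chaf1a cko replicate 1 and 0.39 without Ctrl replicate 1, and that of Pola1 -0.14 without Chaf1a cko replicate 2 and -0.38 with replicate 3 of that group omitted. Pola2, Prim1 and Prim2, the other subunits that make primers, differed by 0.18, 0.10 and -0.04. Per length, these last genes and Pola1 were at or below the chemoreceptor level.

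The clamp, its loader and the genes of lagging-strand synthesis gave 0 calls in 11 genes, 8 with log2 fold changes above 0. Groups did not overlap for 5 genes, all higher, against 8.33% of all genes. Pcna, the sliding clamp that CAF-1 binds, was at 74.7, 61.4 and 63.1 CPM in Chaf1a cko and 53.9, 45.0 and 51.9 CPM in Ctrl. Its log2 fold change was 0.40 (SE 0.11, 95% interval 0.18 to 0.63), and the adjusted p was 0.0952 by edgeR and 0.0157 by DESeq2. Each Chaf1a cko library stood above each Ctrl library. Rfc4, a small subunit of the clamp loader, was at 11.5, 12.4 and 8.19 CPM against 4.62, 5.38 and 6.81 CPM. The log2 fold change of Rfc4 was 0.93 (SE 0.25, adjusted p 0.111 in edgeR), from 69 to 234 counts per library. DESeq2's Wald test gave Rfc4 an unadjusted p of 0.000801 and no adjusted p. Rfc4 shares 194 exon bases with Eif4a2 on the opposite strand, and as no source states whether counting used strand, reads of the 2 genes cannot be told apart there. Of the other loader subunits, Rfc1, Rfc2 and Rfc5 differed by -0.01, -0.06 and -0.03 with overlap, and Rfc3 by 0.32 without. Lig1, which joins Okazaki fragments, was at 38.5, 39.3 and 46.9 CPM against 32.3, 36.1 and 35.2 CPM, a log2 fold change of 0.27 (SE 0.12, adjusted p 0.468 in edgeR). Rpa1, Rpa2 and Rpa3, which coat single strands, differed by 0.17, 0.14 and 0.51, with Rpa3 at the chemoreceptor level. Fen1, the flap nuclease, differed by 0.04.

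All 6 genes of nucleotide supply had log2 fold changes above 0, from 0.06 to 0.44, and none passed the test. For 3 of them the groups did not overlap, against 8.33% of all genes higher without overlap. Rrm2, the ribonucleotide reductase subunit made in S phase, was at 52.0, 52.8 and 49.97 CPM in Chaf1a cko and 37.8, 43.2 and 39.7 CPM in Ctrl. Rrm1, the large subunit, was at 73.0, 78.7 and 74.9 CPM against 72.1, 66.5 and 58.8 CPM. Tk1, the salvage kinase for thymidine, was at 11.5, 14.5 and 9.82 CPM against 10.4, 7.14 and 8.98 CPM. The Chaf1a cko libraries were all above the Ctrl libraries for Rrm2 and Rrm1, while Tk1 overlapped. The log2 fold changes were 0.36 for Rrm2 (SE 0.11), 0.20 for Rrm1 (SE 0.09) and 0.44 for Tk1 (SE 0.23), with adjusted p of 0.153, 0.472 and 0.557 in edgeR. DESeq2 gave Rrm2 an adjusted p of 0.0316. Tyms, which makes thymidylate, differed by 0.37 without overlap, and Dut, which removes dUTP, by 0.27. Ung was grouped with this step, though it cuts uracil out of DNA and does not supply nucleotides, and it differed by 0.06. Tyms has a pseudogene in the table, Tyms-ps, and shared reads could be split between them.

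The E2F genes and cyclins E gave 0 calls in 5 genes, all with log2 fold changes above 0 and all with overlapping groups. E2f1, an activator of S phase genes, was at 20.9, 16.4 and 19.3 CPM in Chaf1a cko and 16.5, 15.9 and 14.6 CPM in Ctrl. E2f8, a repressor known from polyploid cells, was at 32.3, 40.7 and 42.9 CPM against 34.0, 28.1 and 37.0 CPM. Ccne2, a cyclin of the G1 to S transition, was at 9.50, 10.4 and 6.96 CPM against 8.36, 6.83 and 6.76 CPM. In each of the 3 the lowest Chaf1a cko library lay below the highest Ctrl library. The log2 fold changes were 0.27 (SE 0.17), 0.23 (SE 0.14) and 0.29 (SE 0.24) in that order, with adjusted p from 0.655 upwards in edgeR over the step. E2f2, also an activator, and Ccne1, the other cyclin E, differed by 0.13 and 0.11.

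The genes that act on the replicated chromatin held the call. Dnmt1 (Entrez gene 13433, chromosome 9, 20907206 to 20959888 in GRCm38, minus strand) was at 109.9, 95.2 and 109.2 CPM in Chaf1a cko and 82.4, 74.6 and 82.4 CPM in Ctrl, or on average 105 ± 8.33 and 79.8 ± 4.50 CPM (SD, n = 3 each). Each Chaf1a cko library lay above each Ctrl library. The log2 fold change was 0.39 (SE 0.08, 95% interval 0.22 to 0.57) at an adjusted p of 0.0230 by edgeR. The call was lost without robust estimation (adjusted p 0.0617) and when Chaf1a cko replicate 1 (0.150), Chaf1a cko replicate 3 (0.157), Ctrl replicate 2 (0.145) or Ctrl replicate 3 (0.0633) was left out, with log2 fold changes from 0.34 to 0.46 over the 6 omissions. Uhrf1, which reads hemimethylated DNA and brings Dnmt1 to it, was at 39.7, 43.0 and 41.9 CPM against 31.2, 30.8 and 31.5 CPM. Its groups did not overlap, and the log2 fold change was 0.42 (SE 0.12), with an adjusted p of 0.117 in edgeR and 0.0151 in DESeq2. Hells, a remodeller that helps methylation, was at 16.2, 22.2 and 21.3 CPM against 12.6, 23.8 and 10.9 CPM, with overlap and a difference of 0.34 (SE 0.26) that was 0.12 without Ctrl replicate 3, 0.20 without Ctrl replicate 1 and 0.76 without Ctrl replicate 2. Slbp, which binds the stem-loop of replication-dependent histone mRNA, differed by -0.04.

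**Figure D3:**
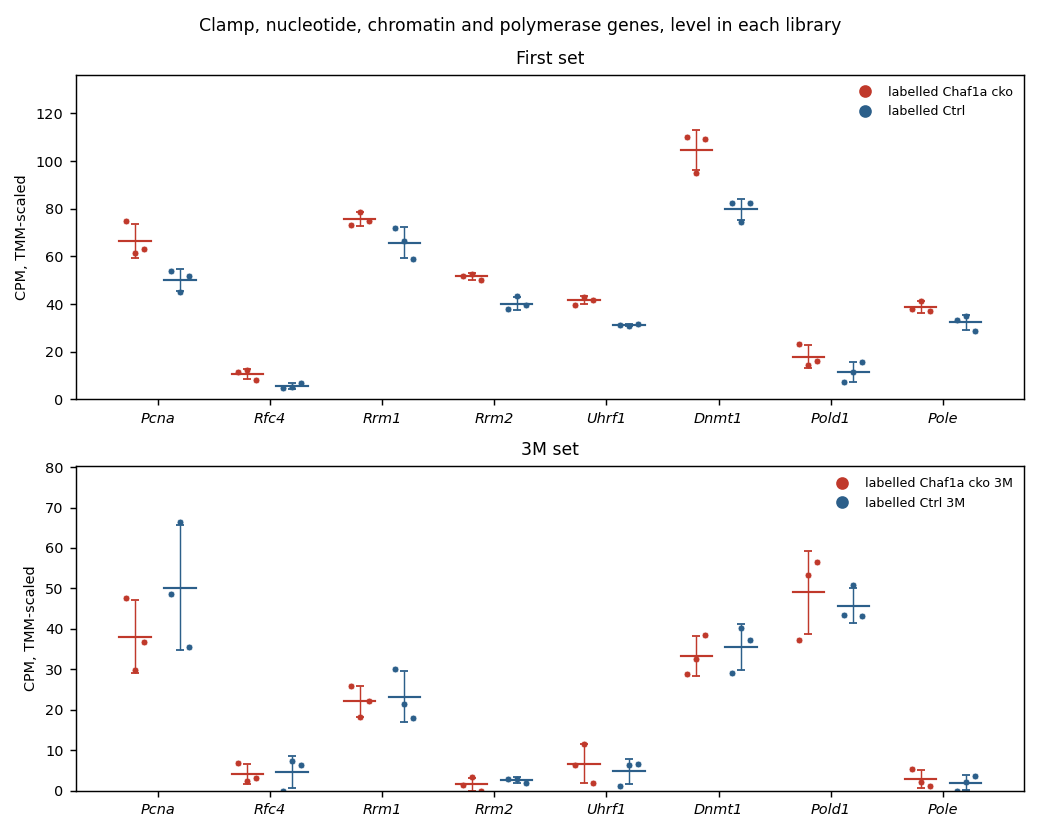
CPM of clamp, nucleotide, chromatin and polymerase genes in each library, with the mean (long bar) and SD (n = 3 per group), Chaf1a cko in red on the left of each pair and Ctrl in blue on the right. In the first set (top) the red points of Dnmt1 lie from 95.2 to 109.9 CPM and the blue ones from 74.6 to 82.4 CPM, and in the 3M set (bottom) the groups overlap for all 8 genes.

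Summed over the 51 genes, the first set had 1355, 1291 and 1340 CPM in Chaf1a cko and 1146, 1145 and 1111 CPM in Ctrl, a ratio of 1.17 with no overlap. A set of 82 other genes of replication, nucleotide supply and E2F control summed to 2753, 2715 and 2810 CPM against 2566, 2604 and 2571 CPM, a ratio of 1.07 with no overlap. Of these 82 genes 0 were called by edgeR. At an unadjusted p under 0.05, 12 were higher and 0 lower, against 5.63% and 4.5% of all genes. Log2 fold changes were above 0 for 55, against 49.1% of all genes, and the median was 0.11. The smallest p among them belonged to Ccna2 (cyclin A2, 0.33, adjusted p 0.115), Topbp1 (an activator of origin firing and of the checkpoint, 0.29, 0.126), Atad5 (which unloads PCNA, 0.44, 0.138) and Tfdp2 (an E2F partner, 0.24, 0.148), and DESeq2 called these 4. By comparison, 7 of 30 genes of G2 and mitosis were called higher, against 0.74% of all genes, and 22 were higher without overlap, against 8.33%. Their summed level was 2626, 2605 and 2644 CPM against 2088, 2075 and 2065 CPM, a ratio of 1.26. Mki67, a marker of cycling cells, was at 773, 789 and 788 CPM in Chaf1a cko and 609, 611 and 607 CPM in Ctrl.

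**Figure D4:**
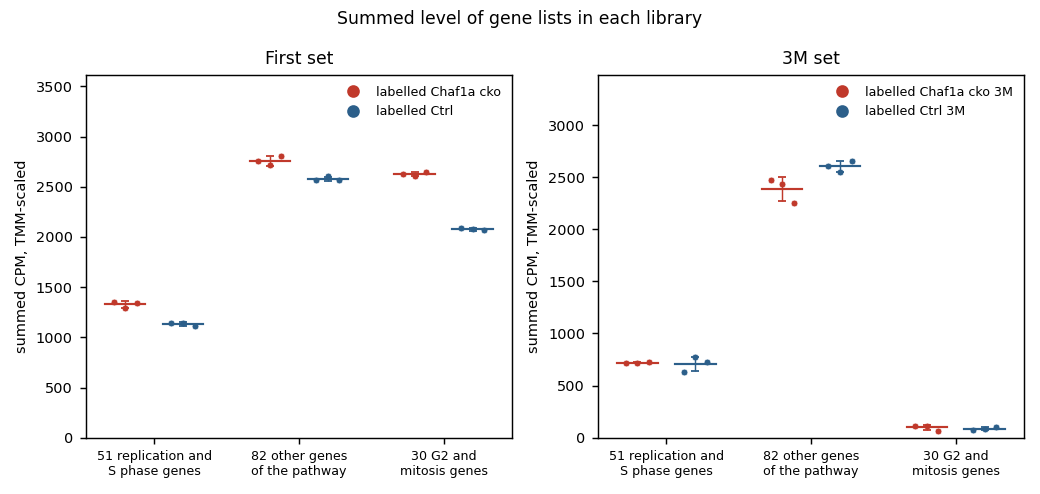
Summed CPM of the 51 replication and S phase genes, the 82 other genes of the pathway and 30 genes of G2 and mitosis in each library, with the mean (long bar) and SD (n = 3 per group), Chaf1a cko in red on the left of each pair and Ctrl in blue on the right. In the first set the 3 lists lie higher in Chaf1a cko with no overlap, and in the 3M set the sums of the 51 genes and of the G2 and mitosis genes overlap, while those of the 82 pathway genes lie lower in Chaf1a cko 3M without overlap, at 2255 to 2472 CPM against 2550 to 2657 CPM.

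Levels of different genes were compared per kilobase of exons. In the first set Pcna stood highest, at 27.7 ± 3.02 CPM per kilobase in Chaf1a cko and 20.9 ± 1.95 in Ctrl (SD, n = 3 each). Rrm2 followed at 18.6 ± 0.527 and 14.5 ± 0.988, then Mcm3 at 14.9 ± 0.816 and 12.1 ± 1.32. Mcm3, Mcm7 and Dnmt1 averaged 13.5, 12.7 and 12.5 over both groups, so near each other that their order is within the spread. At the other end, 19 of the 51 genes averaged at or below the chemoreceptor 95th percentile of 2.63 CPM per kilobase, among them Orc1, Cdc6, Cdc7, Tk1, Tyms and 3 of the GINS genes. By CPM alone 2 genes, Gins1 and Rpa3, were at or below that background.

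**Figure D5:**
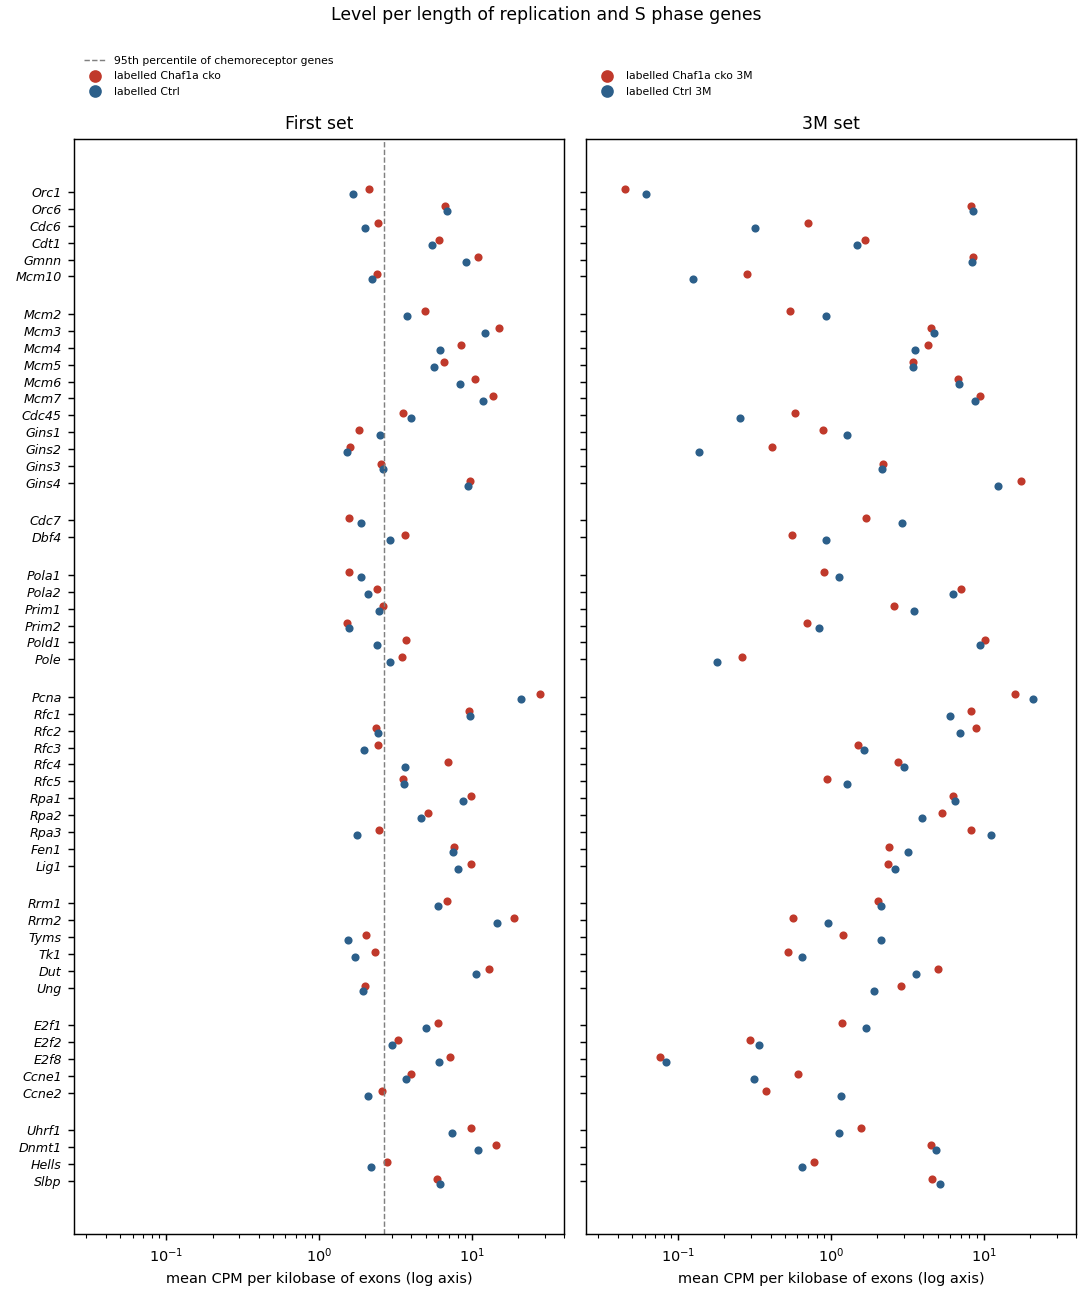
Mean CPM per kilobase of exons of each gene on a log axis, Chaf1a cko in red above Ctrl in blue, for the first set (left) and the 3M set (right). The dashed line is the 95th percentile of chemoreceptor genes in the first set, 2.63 CPM per kilobase, which is 0 in the 3M set and not drawn there. By mean, Gins4 stands highest in Chaf1a cko 3M, within the spread of Pcna, and Pcna in each of the other groups.

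In the 3M set no replication gene passed the test, and 22 of the 49 genes tested lay above their Ctrl 3M levels. Of the 51 genes 49 had enough counts to be tested (Orc1 and E2f8 did not), and 10 were at 0 in at least 1 library. Called by edgeR were 0 higher and 0 lower, where 0.00718% of the 13925 genes tested were called in each direction and 0.0144% in either. At an unadjusted p under 0.05 there were also 0 and 0, against 3.2% and 3.73% of all genes, and DESeq2 called 0. The test finds little in this set: in simulated counts it called 1 of 50 genes changed 2-fold and 14 of 50 changed 4-fold. Those genes were drawn at random from all genes tested, and the share at the levels of the replication genes may differ. Log2 fold changes were above 0 for 22 of 49 genes, against 48% of all genes, and the median was -0.04, against -0.02. Groups did not overlap for 6 genes higher in Chaf1a cko 3M, against 7.21% of all genes, and for 2 lower, against 6.89%. The spread was wide, with a median coefficient of variation over the 51 genes of 33.7% in Chaf1a cko 3M and 34.9% in Ctrl 3M, where the first set had 13.4% in Chaf1a cko and 11.2% in Ctrl. Markers of other cells differed in the same libraries: macrophage markers summed to 303 to 379 CPM in Chaf1a cko 3M and 478 to 564 CPM in Ctrl 3M (5 of 10 without overlap, 0 called, 0 at 0), and cardiomyocyte markers to 54318 to 57286 CPM against 36342 to 45529 CPM (4 of 12 without overlap, 0 called, 0 at 0). Epicardial markers summed to 23.6 to 48.8 CPM against 67.5 to 126 CPM, with 2 of 6 at 0 in every library and 0 of the 3 tested called. Erythroid markers summed to 4095, 3262 and 512 CPM against 745, 475 and 1097 CPM, so that 2 Chaf1a cko 3M libraries stood above the other 4, and 0 of the 7 tested were called. The part of these in the values below was not tested.

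In the licensing step of the 3M set 2 of the 5 genes tested had groups that did not overlap, and none was called. Among all genes tested 7.21% were higher without overlap. Cdc6 was at 5.34, 3.34 and 2.29 CPM in Chaf1a cko 3M and 2.06, 2.25 and 0.639 CPM in Ctrl 3M, and Mcm10 at 2.62, 1.80 and 2.04 CPM against 1.501, 0.474 and 0.879 CPM. Neither gene overlapped between the groups. Their log2 fold changes were 1.14 (SE 0.81) and 1.18 (SE 1.00), with adjusted p of 0.808 and 0.847 in edgeR. Orc6, which had the highest mean CPM of the step, was at 16.5, 18.9 and 25.3 CPM against 23.7, 22.4 and 16.4 CPM, a difference of -0.04 whose sign turned when any of 4 libraries was left out. Cdt1 and Gmnn overlapped too, with differences of 0.20 and 0.03.

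The MCM ring overlapped between groups. Its summed level was 117, 119 and 130 CPM in Chaf1a cko 3M and 93.9, 147 and 122 CPM in Ctrl 3M, with 3 of 6 log2 fold changes above 0. Mcm2 was at 5.25, 4.11 and 1.78 CPM against 4.13, 5.74 and 9.51 CPM, with overlap and a log2 fold change of -0.80 (SE 0.59, adjusted p 0.815 in edgeR), which was -0.42 without Ctrl 3M replicate 3 and -0.47 without Chaf1a cko 3M replicate 3. Mcm7 was at 46.3, 35.4 and 42.8 CPM against 28.4, 44.3 and 43.2 CPM, a difference of 0.10 (SE 0.25) that became -0.08 without Ctrl 3M replicate 1. The ring genes Mcm3, Mcm4, Mcm5 and Mcm6 differed by -0.06, 0.28, 0.01 and -0.03. Gins4, a GINS subunit, was at 24.8, 23.7 and 21.7 CPM against 19.6, 18.9 and 11.3 CPM. The groups of Gins4 did not overlap, and its log2 fold change was 0.49 (SE 0.29, adjusted p 0.766 in edgeR), or 0.28 without Ctrl 3M replicate 3. Gins2 had the highest log2 fold change of the list, 1.59 (SE 1.62), from libraries with 0 to 44 counts, and it shares 2758 exon bases with Gse1 on the opposite strand. Cdc45, Gins1 and Gins3 overlapped, with differences of 1.23, -0.52 and 0.03, and Cdc45 and Gins1 each were at 0 in 1 library.

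Both subunits of the firing kinase were lower in Chaf1a cko 3M without overlap, as were 6.89% of all genes, and neither passed the test. Cdc7 was at 7.03, 7.25 and 6.81 CPM in Chaf1a cko 3M and 9.38, 10.8 and 16.3 CPM in Ctrl 3M. Dbf4 was at 5.44, 4.11 and 4.84 CPM against 7.22, 8.76 and 8.31 CPM. The 2 were the genes of the list lower without overlap. The log2 fold changes were -0.79 for Cdc7 (SE 0.35, 95% interval -1.60 to 0.01, the smallest adjusted p of the list, 0.712 in edgeR; -0.53 without Ctrl 3M replicate 3) and -0.76 for Dbf4 (SE 0.39, adjusted p 0.754).

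At the fork, 2 clamp loader genes were higher without overlap, against 7.21% of all genes, and the clamp itself overlapped. Rfc1 was at 42.5, 53.2 and 51.2 CPM in Chaf1a cko 3M and 30.8, 38.8 and 38.1 CPM in Ctrl 3M, and Rfc2 at 51.6, 57.9 and 56.4 CPM against 37.5, 45.7 and 47.4 CPM. Neither overlapped between groups, with log2 fold changes of 0.45 (SE 0.21, adjusted p 0.729 in edgeR) and 0.35 (SE 0.20, adjusted p 0.766). Pcna was at 47.7, 29.97 and 36.7 CPM against 48.6, 66.5 and 35.6 CPM, with overlap and a log2 fold change of -0.40 (SE 0.29, adjusted p 0.810). Per kilobase Pcna was at 15.9 ± 3.73 CPM in Chaf1a cko 3M and 20.9 ± 6.47 CPM in Ctrl 3M, and Gins4 at 17.4 ± 1.18 and 12.3 ± 3.40 CPM (SD, n = 3 each). By mean, Gins4 was thus highest in Chaf1a cko 3M and Pcna in Ctrl 3M. In Chaf1a cko 3M the order of these 2 genes is within the spread. Prim1, a primase subunit, was at 7.97, 9.43 and 12.5 CPM against 13.9, 11.6 and 14.9 CPM, and Pola2, the second subunit of polymerase alpha, at 56.5, 46.6 and 72.4 CPM against 42.0, 49.4 and 63.9 CPM. Both overlapped, with log2 fold changes of -0.43 (SE 0.32) and 0.18 (SE 0.25). The other genes of the polymerase step ran from -0.32 (Pola1) to 0.55 (Pole), with Pold1 at 0.10 and Prim2 at -0.26. Those of the clamp step (Rfc3, Rfc4, Rfc5, the 3 RPA genes, Fen1 and Lig1) ran from -0.45 (Rpa3) to 0.43 (Rpa2), and all of them overlapped.

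The nucleotide, E2F and chromatin genes of the 3M set overlapped between groups except for Ung. That gene was at 14.3, 16.2 and 16.5 CPM in Chaf1a cko 3M and 3.56, 13.9 and 13.7 CPM in Ctrl 3M, a log2 fold change of 0.59 (SE 0.48) that was 0.18 without Ctrl 3M replicate 1. Tyms was at 8.44, 7.70 and 5.73 CPM against 22.5, 8.23 and 7.59 CPM, a difference of -0.81 (SE 0.48) that was -0.12 without Ctrl 3M replicate 1. Ccne2 was at 0.562, 1.09 and 2.29 CPM against 0.657, 9.06 and 2.32 CPM, the lowest log2 fold change of the list at -1.60 (SE 1.06), and it was -0.17 without Ctrl 3M replicate 2. In both genes a single Ctrl 3M library stood far above the rest. E2f1 was at 6.94, 2.95 and 1.27 CPM against 4.41, 5.92 and 5.59 CPM, a difference of -0.52 (SE 0.67) that was -1.32 without Chaf1a cko 3M replicate 1 and -0.11 without Chaf1a cko 3M replicate 3. Dnmt1 was at 28.9, 32.5 and 38.5 CPM against 29.2, 40.1 and 37.2 CPM, a difference of -0.09 (SE 0.23) whose sign turned when Chaf1a cko 3M replicate 1 or Ctrl 3M replicate 2 was left out. Uhrf1 was at 6.47, 11.7 and 1.91 CPM against 1.22, 6.45 and 6.71 CPM, and its difference of 0.47 (SE 0.79) became -0.21 without Chaf1a cko 3M replicate 2. For these 3 genes the ranges of the groups lay over each other. Slbp and Rrm1 differed by -0.16 and -0.07, Rrm2, Tk1 and Dut by -0.77, -0.30 and 0.48, E2f2 and Ccne1 by -0.19 and 0.95, and Hells by 0.26.

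Over the 82 other genes of the pathway 79 were tested in the 3M set and 0 were called by edgeR or DESeq2. At an unadjusted p under 0.05 in edgeR 1 was higher and 5 were lower, against 3.2% and 3.73% of all genes. Tfdp1, the main E2F partner, was at 51.6, 50.1 and 38.0 CPM in Chaf1a cko 3M and 115.9, 84.0 and 58.4 CPM in Ctrl 3M, without overlap (log2 fold change -0.89, SE 0.28, adjusted p 0.607 in edgeR). The RB relative Rbl1 (-0.92), the polymerase epsilon subunit Pole4 (-1.25) and the RNase H2 subunit Rnaseh2a (0.57) followed, with adjusted p from 0.659 to 0.712. Log2 fold changes were above 0 for 33 of the 79, against 48% of all genes, and the median was -0.03, against -0.02. Groups did not overlap for 5 genes higher, against 7.21% of all genes, and for 6 lower, against 6.89%. The 82 genes summed to 2472, 2436 and 2255 CPM in Chaf1a cko 3M and 2607, 2550 and 2657 CPM in Ctrl 3M. This was a ratio of 0.917 with no overlap, on the other side of 1 from the first set, a difference that was not tested. Genes of high level weigh most in such a sum. The summed level of the 51 genes was 719, 715 and 726 CPM against 634, 771 and 722 CPM, a ratio of 1.02 with overlap.

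Whether the difference between labels was itself different in the 2 sets was tested as an interaction over all 12 libraries, with 22803 genes. None of the 51 genes passed, where 0.0658% of all genes were called. At an unadjusted p under 0.05 there were 4 of the 51, against 9.47% of all genes. They were Dbf4, Rfc1, Pcna and Mcm2, with differences (3M minus first set, log2) of -1.05, 0.50, -0.77 and -1.17 and adjusted p of 0.263, 0.509, 0.526 and 0.526 in edgeR. Of these 4, Dbf4 was the one whose Chaf1a cko libraries all lay above Ctrl and whose Chaf1a cko 3M libraries all lay below Ctrl 3M. Among all genes, 8.33% were higher without overlap in the first set and 6.89% lower in the 3M set.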

How the data were processed

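Per the labels' protocols, total RNA was taken from cultured cardiomyocytes with TRIzol and sequenced with a stranded kit that removes ribosomal RNA. FastQC, Trimmomatic, HISAT2 and the build mm10 are named in the submitters' processing notes. The authors deposited raw counts per gene symbol in 2 tables of 6 libraries. How reads were counted, on which annotation and with which strand option, is not given in the sources used. Reads of a gene and an antisense neighbour, as for 15 of the 51 genes, cannot be told apart.

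A separate fit was made per table with edgeR 4.0.16 under R 4.3.3 (filterByExpr with a minimum count of 10 and a minimum total of 15, TMM scaling, glmQLFit with robust estimation, glmQLFTest, two-sided, Benjamini-Hochberg adjustment over all genes tested, threshold 0.05). The interaction of table and label used all 12 libraries, and no level was compared between tables. Exon lengths came from GENCODE M21 on GRCm38, the basis of mm10, and promoter windows and identifiers from RefSeq GRCm38.p6. Control columns, named WT in the tables, were matched to Ctrl titles by replicate number. No pair of libraries of a group agreed within sampling noise. The fitting script was checked on simulated counts, with 50 genes changed at each fold. They were drawn at random from all genes tested and not by the levels of the replication genes. In the first set 1 of 50 was called at 1.25-fold, 9 at 1.5-fold, 27 at 2-fold and 35 at 4-fold. In the 3M set 0 were called at 1.25-fold and 1.5-fold, 1 at 2-fold and 14 at 4-fold. A gene without a call may thus still differ by such amounts, above all in the 3M set. Alternatives were DESeq2 1.42.0 (Wald test, or its size factors in edgeR), library size alone, no filter, a filter of 10 CPM in at least 3 libraries, no robust estimation, a replicate block and each library left out.

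The genes, steps and lists were chosen with earlier results of these data known. Genes named with values were those called, per step the 3 smallest unadjusted p of the first set and the 2 smallest of the 3M set, the highest mean CPM of each step, and 4 of the other pathway genes per set. Mcm2, Mcm5, Gins2 and the genes given only by their difference were added to account for every gene of a step. Intervals cover counting error and the spread between 3 libraries. The check of same-numbered libraries gave correlations of deviations from -0.015 to 0.024 in the first set and 0.028 to 0.065 in the 3M set, so the numbers were not taken as pairs.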

Additional observations from a re-analysis of the deposited data

Results flagged for a closer look

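Dbf4, the activating subunit of the Cdc7 kinase, was singled out because its 2 sets went opposite ways. It was at 33.7, 29.3 and 31.6 CPM in Chaf1a cko and 24.2, 28.0 and 23.0 CPM in Ctrl of the first set. The 3M levels were 5.44, 4.11 and 4.84 CPM in Chaf1a cko 3M and 7.22, 8.76 and 8.31 CPM in Ctrl 3M. Every library labelled Chaf1a cko lay above every Ctrl library in the first set, as for 8.33% of all genes tested there. Every library labelled Chaf1a cko 3M lay below every Ctrl 3M library, as for 6.89% of all genes tested in that set. How many genes did both was not counted. The difference of the 2 log2 fold changes was -1.05 (3M minus first set, SE 0.26, 95% interval -1.62 to -0.49). Its unadjusted p was 0.00161 and its adjusted p 0.263 in edgeR's interaction fit, so it did not pass the threshold over all genes. The tables also differ in background counts and in spread. Y-linked genes differed between labels in the first set, and sums of cell markers did in both sets. The part of each of these in the difference was not tested.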

How the results depend on the processing

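The count of genes called higher in the first set was 1 in the reported fit, 5 with DESeq2's Wald test, 0 without robust estimation and 0 to 1 with a library left out, and 0 genes were called lower under each alternative run. Other pathway genes called were 0, and 4 with DESeq2. Log2 fold changes above 0 numbered 33 under the filter of 10 CPM, which tests fewer genes, and 38 to 41 otherwise. All genes called numbered 270, with 491 by DESeq2, 155 without robust estimation and 128 to 201 with a library left out. In the 3M set 0 of the 51 genes were called under each alternative, and those above 0 numbered 12 under the filter of 10 CPM, where fewer genes are tested, and 20 to 25 otherwise. Other pathway genes called were 0 to 1 with a library left out. All genes called numbered 2, with 76 by DESeq2, 6 without a filter, 1 without robust estimation and 0 to 5 with a library left out. With the replicate block, 1 of the 51 genes was called in the first set, 0 in the 3M set, and 192 and 0 of all genes. In the 3M set every same-numbered pair correlated best with its own number, a hint from the data and not from the design. Of the first-set genes chosen by the naming rule and refitted one by one none changed sign with a library left out, and those that moved by over 1.5 times and are not given above were Mcm6 (0.20), Lig1 (0.17), Rrm1 (0.13), Tk1 (0.28), E2f8 (0.12) and Ccne2 (0.17 to 0.44). Other genes of the list were not followed singly, and as the count above 0 moved, some of them did change sign. In the 3M set signs turned with a library left out for Orc6 (-0.23 to 0.087), Mcm7 (-0.078 to 0.21), Pola2 (-0.0056 to 0.35), Rrm1 (-0.23 to 0.16), Uhrf1 (-0.21 to 0.91) and Dnmt1 (-0.22 to 0.0065). The causes were not tested. With 3 libraries a group, the wide 3M spread and the background of the first set limit what can be read from genes of low level.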
